A study of Mus musculus with 6 samples.

Results

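The karyopherins examined here were 10 genes that encode carriers of nuclear import and export, out of 21878 gene rows in each of 6 RNA-seq libraries of mouse hematopoietic stem cells (HSCs). They are 5 importin alpha genes (Kpna1, Kpna2, Kpna3, Kpna4 and Kpna6), the importin beta gene Kpnb1, the importins Ipo5, Ipo7 and Tnpo1, and the exportin Xpo1, and every one of them had a row and passed the filter on low values. The list was made by symbol with earlier results of these libraries known, and Kpna2 was chosen by its own fall after IGF1, so its change is described without a test. The libraries came from wild-type mice (label WT; the study's C57BL/6 stock), 3 from control mice and 3 from mice given IGF1, which the study injected subcutaneously at 200 µg/kg, with the cells taken at day 1. HSCs were sorted from bone marrow as Lineage- Sca-1+ c-Kit+ Flt3- CD34- cells. The label for treatment names IGF1, whereas the extraction text of the same samples names irradiated mice, and IGF1 was taken, as in the study. The ages of the mice, and whether a library held cells of 1 mouse or of several, are not given in the sources used here, so the p-values below measure only the spread between these libraries, which may be technical.

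Karyopherins carry proteins and RNAs through the nuclear pore. An importin alpha binds the basic nuclear localization signal of a cargo, and importin beta binds the importin alpha and takes the complex through the pore. The small GTPase Ran, loaded with GTP in the nucleus by Rcc1, frees the cargo there, and the exportin Cse1l returns importin alpha to the cytoplasm. Other importins, such as Ipo5, Ipo7 and Tnpo1, bind cargo without an adaptor, and exportins such as Xpo1 (CRM1) bind cargo together with Ran-GTP. Dividing blood progenitors use this traffic for histones, ribosomal proteins, cell cycle regulators and transcription factors, and importins also hold spindle factors inactive away from chromosomes.

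Promoters are shown for the member with the largest difference (Kpna2), the member that went the other way (Kpnb1) and the exporter (Xpo1). The windows come from RefSeq (GRCm38.p6), run from 250 bases before the start to 30 after it, and read 5′ to 3′ on the strand of the gene. Kpna2 lies on the minus strand of chromosome 11 (window chr11:106999496-106999775), Kpnb1 on the minus strand (chr11:97187863-97188142) and Xpo1 on the plus strand (chr11:23255791-23256070). Capitals mark CCAAT, the box bound by NF-Y, and TTTGAA, the core of the cell cycle homology region found in promoters of many mitotic genes, each searched on both strands, where the reverse complements are ATTGG and TTCAAA.
Kpna2: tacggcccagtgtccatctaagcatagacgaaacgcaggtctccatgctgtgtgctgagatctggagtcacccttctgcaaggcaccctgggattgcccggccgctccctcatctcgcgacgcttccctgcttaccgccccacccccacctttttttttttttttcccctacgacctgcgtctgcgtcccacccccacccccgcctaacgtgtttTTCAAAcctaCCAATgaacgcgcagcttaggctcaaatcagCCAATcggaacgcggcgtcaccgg
Kpnb1: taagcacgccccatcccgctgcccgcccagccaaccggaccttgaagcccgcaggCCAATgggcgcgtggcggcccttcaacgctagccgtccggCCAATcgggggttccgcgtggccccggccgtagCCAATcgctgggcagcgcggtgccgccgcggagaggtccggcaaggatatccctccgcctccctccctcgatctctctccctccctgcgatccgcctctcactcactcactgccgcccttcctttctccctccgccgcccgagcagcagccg
Xpo1: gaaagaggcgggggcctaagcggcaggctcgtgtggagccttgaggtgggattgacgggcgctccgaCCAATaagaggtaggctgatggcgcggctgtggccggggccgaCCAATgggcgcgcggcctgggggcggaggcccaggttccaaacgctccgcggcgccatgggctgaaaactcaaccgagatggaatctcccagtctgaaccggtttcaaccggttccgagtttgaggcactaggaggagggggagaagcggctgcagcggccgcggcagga
The Kpna2 window held 2 CCAAT matches and 1 TTTGAA match, the latter on the reverse strand just ahead of a CCAAT, whereas Kpnb1 held 3 CCAAT matches, Xpo1 held 2, and neither held TTTGAA. Of the 7 members with a window, 6 held CCAAT and 2 held TTTGAA (Kpna2 and Ipo7), in windows of 300 bases. Ipo5 and Tnpo1 had 2 windows each, and only 1 of the 2 held CCAAT. The member counts are thus per gene, whereas the shares that follow are per window. Over all 32851 promoter windows of 300 bases, 37.4% held CCAAT, 17.9% held TTTGAA and 6.95% held both. The matches are letters in these windows, and binding was not measured.

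The control libraries were not alike, which touches every result below. Of the 10449 genes tested, 0 differed by over 2-fold when control replicates 1 and 3 were set against each other, and 2 to 5 did within the IGF1 group. Control replicate 2 differed from the other controls in 2504 and 2510 genes, but only 94 to 113 genes separated it from an IGF1 library, so the differences of the karyopherins and the counts of calls are given with and without it. In recovered reads, chi-square per gene was 1.51 between control replicates 1 and 3 and 1.68 to 1.88 between IGF1 libraries, where sampling noise alone gives about 1, and it was 227 and 228 between control replicate 2 and the other controls. Whole reads could be recovered from the values, in all 15388940, 10999966 and 15477595 for the control libraries and between 10801596 and 12285917 for the IGF1 libraries. The values are FPKM, that is fragments scaled to the length of the gene and to the depth of the library, and their sum over genes was 466619 and 466135 in control replicates 1 and 3, 635111 in control replicate 2 and 677826 to 680285 in the IGF1 libraries. The groups were compared by limma, with values on the log2(FPKM + 1) scale, where changes of low genes are understated, and a gene was called when it differed by over 2-fold with an adjusted p under 0.05 (Benjamini-Hochberg, over the genes tested). The sort was checked against its markers. Kit and Ly6a, the genes of c-Kit and Sca-1, were expressed, but with the same split of libraries. Kit was at 105, 31.4 and 104 FPKM in the control libraries and 24.2 to 24.6 after IGF1 (log2 fold change -1.49, adjusted p = 0.0602, and -2.06 and called without control replicate 2), and Ly6a at 219, 615 and 231 and then 374 to 387. Cd34 and Flt3, the genes of both antigens that the gate excludes, were expressed as well. Cd34 was at 640, 265 and 634 FPKM in the control libraries and 230 to 238 after IGF1 (-1.03, adjusted p = 0.0714, and -1.45 and called without control replicate 2), and Flt3 at 117, 172 and 117 and then 183 to 188, while the long-term stem cell markers Slamf1, Fgd5 and Hoxb5 were at 0.277 to 2.41 FPKM, so the cells are called by their sort. The part of these shifts in the karyopherin differences was not tested.

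The karyopherin genes showed lower transcript levels of 4 of the 5 importin alpha genes, but not of importin beta, in IGF1 libraries. Kpna2, which had the highest level of the 10 genes in each control library, was 5.66-fold lower on the mean FPKM of the groups, and Kpna1, Kpna3 and Kpna4 were 4.92-fold, 2.60-fold and 2.16-fold lower. Kpnb1 was 1.49-fold higher on the means, a difference that rested on control replicates 1 and 3. Kpna1, Kpna3, Kpna4 and Kpnb1 did not pass the thresholds with all libraries and passed them without control replicate 2. In 8 of the 10 genes every IGF1 library lay below every control library, as in 37.4% of all genes tested.

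**Figure D1:**
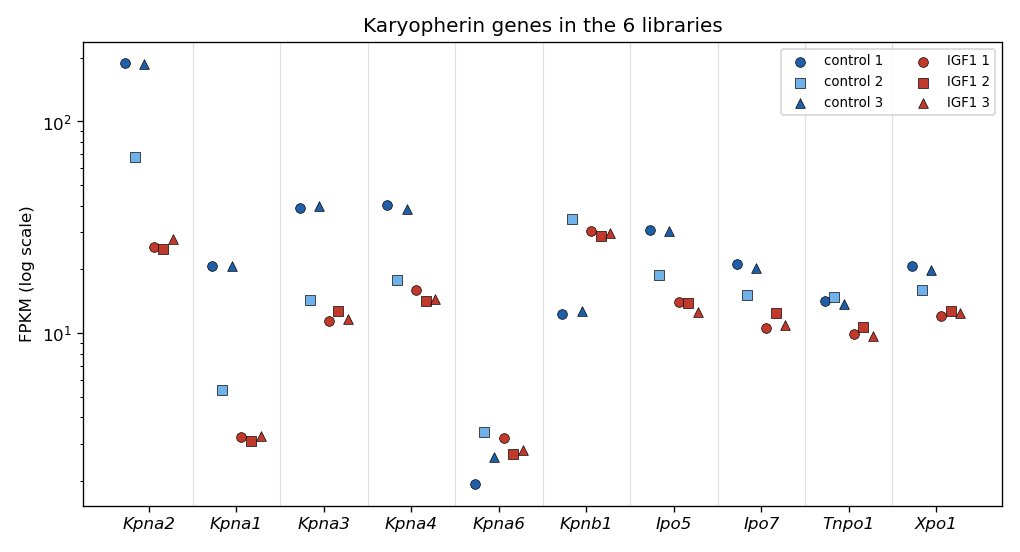
FPKM (log axis) of the 10 karyopherin genes in each library, with control libraries in blue, IGF1 libraries in red and control replicate 2 in pale blue. Kpna2 stands at 187 to 188 FPKM in control replicates 1 and 3, 68.2 in control replicate 2 and 24.9 to 28.0 in the IGF1 libraries. Kpnb1 is lowest in control replicates 1 and 3 and highest in control replicate 2, with the IGF1 libraries between.

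Kpna2, the importin alpha best known from cycling and undifferentiated cells, had 188, 68.2 and 187 FPKM in the control libraries, in order of replicate here and below, and 25.5, 24.9 and 28.0 after IGF1. The means were 148 ± 68.9 FPKM (SD, n = 3) and 26.1 ± 1.63 FPKM (SD, n = 3), for a log2 fold change of -2.32 (standard error, SE, 0.40). Control replicate 2 had an intermediate value, and the change was -2.80 without it. These values were the ones that put Kpna2 on the list and are given as a description. The gene lies at chr11:106988629-106999541 (GRCm38, GENCODE M21, minus strand), and Kpnb1 (chr11:97159714-97187881) and Xpo1 (chr11:23256041-23298249) are on the same chromosome. The recovered reads behind the Kpna2 values were 6146, 1604 and 6143 in the controls and 575 to 735 in the IGF1 libraries. The GENCODE M21 annotation of GRCm38 holds 13 other genes with a transcript at least 90% identical to a Kpna2 transcript over more than 300 bases, among them Gm10184 (99.9% over 1968 bases) and the processed pseudogene Gm10259 (99.8% over 1590 bases). Only Med20, through a transcript with a retained intron, is a row of the files, so reads of Kpna2 could have been split with copies that are not analysed here, and its level is uncertain.

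Kpna1, which binds classical import signals, had 20.8, 5.40 and 20.8 FPKM in the control libraries and 3.22, 3.09 and 3.26 after IGF1. Its IGF1 values lay below every control value, with control replicate 2 nearer to them than to the other controls. The log2 fold change of -1.79 (SE 0.49) missed the threshold (adjusted p = 0.0509, limma), and without control replicate 2 it was -2.38 and called (adjusted p = 1.9e-10). Kpna3 and Kpna4 form one subfamily of importin alpha, and both followed the same order of libraries. Kpna3 had 38.9, 14.3 and 39.8 FPKM in the control libraries and 11.4, 12.7 and 11.7 after IGF1, and its log2 fold change was -1.18 (SE 0.39, adjusted p = 0.0651). Kpna4 had 40.2, 17.8 and 38.6 FPKM in the control libraries and 16.0, 14.2 and 14.5 after IGF1, and its log2 fold change was -0.98 (SE 0.32, adjusted p = 0.0616). Neither was called with all libraries. Without control replicate 2 both were, at -1.64 and -1.35. Kpna6, the closest relative of Kpna1 on the list, was the least expressed member. It had 1.93, 3.41 and 2.60 FPKM in the control libraries and 3.21, 2.70 and 2.82 after IGF1, which overlapped. Its log2 fold change of 0.12 (SE 0.17, adjusted p = 0.581) reversed to -0.03 without control replicate 1.

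The summed FPKM of the 5 importin alpha genes, a per-length level, was 290, 109 and 289 in the controls and 59.3, 57.6 and 60.2 in the IGF1 libraries. Every IGF1 sum was below every control sum. Kpna2 made up 64.9%, 62.5% and 64.7% of it in the controls and 43.0%, 43.2% and 46.4% in the IGF1 libraries, so its share in control replicate 2 lay with the other controls although the sum did not. The share of Kpna4 was 13.8%, 16.3% and 13.4% in the controls and 24.1% to 26.9% in the IGF1 libraries, and that of Kpna3 was 13.1% to 13.8% and 19.3% to 22.0%. Kpna1 kept 4.95% to 7.20% in the 6 libraries. These shares hold Kpna2, which was chosen on its fall, and they carry no test. In bulk libraries fewer cells of a type and less RNA per cell cannot be told apart.

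Kpnb1, the partner of all importin alpha proteins, had 12.3, 34.5 and 12.7 FPKM in the control libraries and 30.5, 28.9 and 29.6 after IGF1. Control replicate 2 had the highest value of the 6 libraries, so the groups overlapped. The log2 fold change of 0.71 (SE 0.39) did not pass (adjusted p = 0.169, limma), and without control replicate 2 it was 1.18 (adjusted p = 4.53e-09), a called rise. The ratio of summed importin alpha FPKM to Kpnb1 FPKM was 23.5, 3.16 and 22.7 in the controls and 1.95, 2.0 and 2.03 in the IGF1 libraries. Leaving Kpna2 out of the sum gave 8.26, 1.18 and 8.0 in the controls and 1.11, 1.13 and 1.09 in the IGF1 libraries. Both ratios were lower in each IGF1 library than in each control library, but in control replicate 2 they stood near the IGF1 libraries. In the control libraries Kpna2 stood above Kpnb1, and in each IGF1 library Kpnb1 had the highest level of the 10 genes, close to Kpna2.

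**Figure D2:**
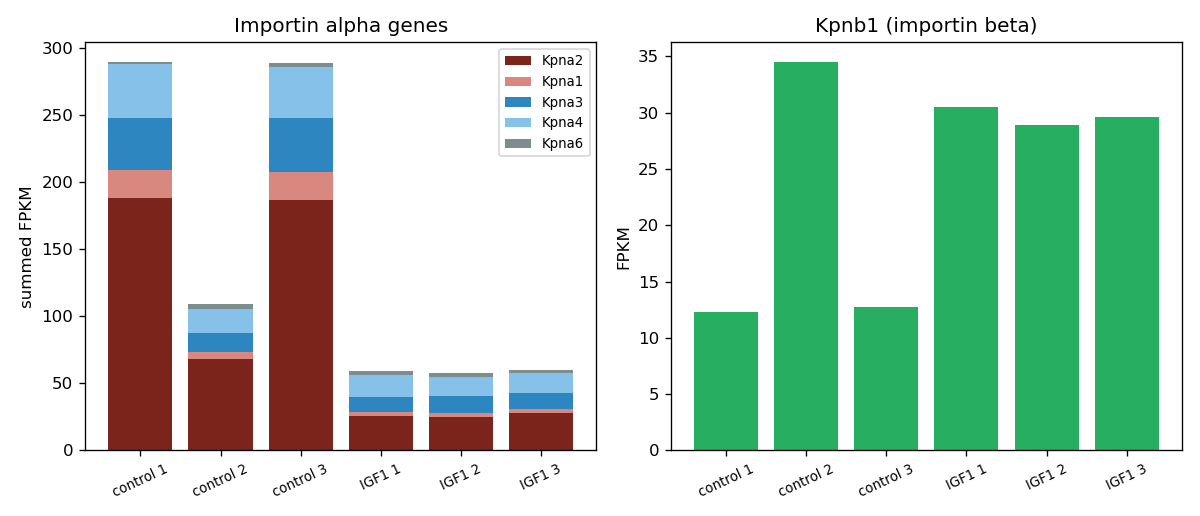
FPKM per library, with the importin alpha genes stacked on the left and Kpnb1 on the right, both axes starting at 0. The importin alpha sum is 289 to 290 in control replicates 1 and 3, 109 in control replicate 2 and 57.6 to 60.2 in the IGF1 libraries, while Kpnb1 is at 12.3 to 12.7 in control replicates 1 and 3 and at 28.9 to 34.5 in the other libraries.

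The importins that bind cargo directly had smaller differences than Kpna1, Kpna2, Kpna3 and Kpna4. Ipo5, which carries ribosomal proteins and histones, had 30.6, 18.9 and 30.5 FPKM in the control libraries and 14, 13.9 and 12.6 after IGF1. All 3 IGF1 values lay below the controls, and the log2 fold change was -0.90 (SE 0.21, adjusted p = 0.0423). Ipo7, a carrier of ribosomal proteins that also works with Kpnb1 on linker histone, had 21.2, 15.1 and 20.4 FPKM in the control libraries and 10.6, 12.4 and 10.9 after IGF1. The log2 fold change of Ipo7 was -0.68 (SE 0.16, adjusted p = 0.0430). Tnpo1 (transportin), which imports hnRNP proteins such as hnRNP A1, had 14.2, 14.9 and 13.8 FPKM in the control libraries and 9.88, 10.7 and 9.70 after IGF1. Here control replicate 2 lay close to the other controls. The log2 fold change of -0.47 (SE 0.10, adjusted p = 0.0413) was -0.44 without that library. Xpo1, which exports proteins with a leucine-rich signal and is the target of leptomycin B, had 20.7, 16.0 and 19.9 FPKM in the control libraries and 12.1, 12.7 and 12.4 after IGF1. The log2 fold change was -0.56 (SE 0.13, adjusted p = 0.0429), so Xpo1, like Ipo5, Ipo7 and Tnpo1, passed the adjusted p but not the fold threshold. Without control replicate 2 only Ipo5 of these passed both, at -1.12, with Ipo7 at -0.83 and Xpo1 at -0.67.

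**Figure D3:**
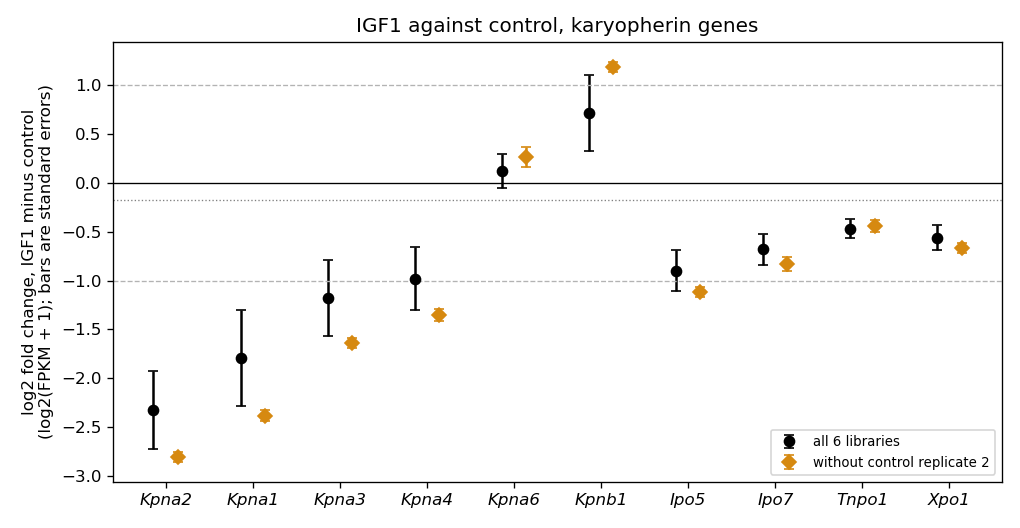
Log2 fold change, IGF1 minus control, on log2(FPKM + 1) for the 10 genes, with all 6 libraries (circles) and without control replicate 2 (diamonds), bars showing standard errors from limma; dashed lines mark a 2-fold change and the dotted line the median of all genes tested (-0.18). Kpna2 lies at -2.32 and -2.80, Kpnb1 at 0.71 and 1.18, and Tnpo1 at -0.47 and -0.44.

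Over the 10 genes the median log2 fold change was -0.79, and over the 9 genes other than Kpna2 it was -0.68, against -0.18 over all 10449 genes tested. The only member past both thresholds was Kpna2, which was selected on this fall, so nothing is read from its call. The other 9 genes had 0 calls by limma in either direction, where 4.63% of all genes were called lower and 1.98% higher. At an unadjusted p under 0.05 (limma), 2 of them (Kpna1 and Kpna3) were lower by over 2-fold and 0 were higher. By that measure 1077 of the 10449 genes tested were lower and 666 higher. At the adjusted p alone 5 members were lower, Kpna2 among them, where 14.1% of all genes were. In 8 members the IGF1 libraries lay below every control library, as in 37.4% of all genes tested, and in 0 members above it, as in 21.9%. Without control replicate 2, 5 members were called lower (Kpna1, Kpna2, Kpna3, Kpna4 and Ipo5) where 20.6% of all genes were, 1 was called higher (Kpnb1) where 12.3% were, and the median was -0.98 (-0.83 without Kpna2) against -0.24. Without any one of the other 5 libraries 0 members were called in either direction, and 2 or 3 were lower by over 2-fold at an unadjusted p under 0.05. In those fits 0 of the 10449 genes tested were called, and 450 to 795 were lower by the unadjusted measure. The member counts without a library include Kpna2, which its fall had selected. With libraries scaled at the 75th percentile, the median of all genes moved from -0.18 to 0.04, and that of the members from -0.79 to -0.55, and Kpnb1 had the same direction under each scaling.

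The comparison was repeated with the trends of gene length and GC content removed from each library, an alternative chosen after seeing the data. The median of the members was then -0.37 (-0.30 without Kpna2) against -0.07 over all genes. Kpna2 stood at -1.99, Kpna1 at -1.28, Kpna4 at -0.84 and Kpnb1 at 0.96. Kpna3 moved to -0.55 (adjusted p = 0.127) and Ipo5 to -0.44 (adjusted p = 0.0409). The adjusted p of Xpo1 (-0.13), Ipo7 (-0.11) and Tnpo1 (-0.30) was 0.221, 0.344 and 0.0606, so these 3 differences no longer passed.

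The other carriers were taken from lists fixed by symbol, also with earlier results known. Of 8 further importins with a row, 7 could be tested and 0 were called, and 5 were called lower without control replicate 2, where 20.6% of all genes were. Kpna7, the oocyte importin alpha, was listed at 0 in all libraries. Ipo9 had 20.6, 11.1 and 21.4 FPKM in the control libraries and 7.92, 8.30 and 8.76 after IGF1, for a log2 fold change of -0.95 (SE 0.26, adjusted p = 0.0498), and of -1.24 without control replicate 2. In Ipo4, a histone carrier, in Ipo13 and in the SR protein importin Tnpo3 the groups overlapped, since control replicate 2 lay with the IGF1 libraries, and their log2 fold changes were -0.74, -0.80 and -0.94, and -1.21, -1.30 and -1.41 without that library. Tnpo2, the close relative of Tnpo1, was at 2.27 to 3.26 FPKM in the controls and 3.45 to 4.3 after IGF1, for a log2 fold change of 0.44 (adjusted p = 0.0689), and of 0.56 without control replicate 2.

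Of the other exportins, 6 were tested, 0 were called, and all 6 had log2 fold changes below 0, as had 6228 of the 10449 genes tested. Without control replicate 2, 5 were called lower, where 20.6% of all genes were. Cse1l, the carrier that returns importin alpha to the cytoplasm, had 90.6, 24.0 and 90.9 FPKM in the control libraries and 19.2, 19.0 and 20.2 after IGF1. Its log2 fold change was -1.54 (SE 0.52, adjusted p = 0.0658), and -2.17 without control replicate 2. Relative to the importin alpha sum, Cse1l was at 0.312, 0.220 and 0.315 in the controls and 0.323, 0.330 and 0.335 after IGF1, so control replicate 2 alone had a lower ratio. Xpo5, the exporter of precursor miRNAs, had 21.7, 4.44 and 21.6 FPKM in the control libraries and 3.36 to 4.18 after IGF1 (log2 fold change -1.56, adjusted p = 0.0761, and -2.25 without control replicate 2). Xpot, the tRNA exporter, had 21.9, 8.85 and 22.3 FPKM in the control libraries and 6.80 to 6.87 after IGF1 (log2 fold change -1.15, adjusted p = 0.0567, and -1.56 without control replicate 2).

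The Ran cycle had 0 calls among 8 genes. Without control replicate 2, 1 (Rcc1) was called lower, where 20.6% of all genes were. Rcc1, the exchange factor that loads Ran with GTP, had 79.2, 36.6 and 83.8 FPKM in the control libraries and 25.2, 27.9 and 28.4 after IGF1, for a log2 fold change of -1.18 (SE 0.32, adjusted p = 0.0509), and of -1.55 without control replicate 2. Nutf2, which brings Ran back to the nucleus, had 104, 101 and 105 FPKM in the control libraries and 67.1, 67.8 and 68.4 after IGF1, for a log2 fold change of -0.60 (SE 0.09, adjusted p = 0.0287). That change was -0.62 without control replicate 2, and once trends of length and GC content had been removed it was -1.22 (adjusted p = 0.0396) and passed both thresholds. In Nutf2, as in Tnpo1, control replicate 2 lay close to the other controls. Ran itself had 538, 620 and 545 FPKM in the control libraries and 444, 444 and 458 after IGF1, and its log2 fold change of -0.33 (adjusted p = 0.0942) came to 0.01 with these trends removed and to -1.03, past both thresholds, with quantile normalization. Ranbp1, its helper in the cytoplasm, was at 640 to 697 FPKM in the controls and 637 to 670 in the IGF1 libraries. Rangap1, which activates GTP hydrolysis by Ran, had a log2 fold change of -0.49 (adjusted p = 0.0711), and of -0.68 without control replicate 2.

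Of 5 transport adaptors, 1 was called lower. Nmd3, which links the large ribosomal subunit to Xpo1, had 89.6, 41.8 and 91.2 FPKM in the control libraries and 21.7, 22.9 and 22.4 after IGF1, for a log2 fold change of -1.60 (SE 0.31, adjusted p = 0.0367), and of -1.97 without control replicate 2. Of 30 nuclear pore genes, 29 had a log2 fold change below 0, with a median of -0.72, where 6228 of all 10449 genes tested were below 0, and 2 were called lower, where 4.63% of all genes were. Nup107, a scaffold subunit of the Y complex, had 54.8, 19.5 and 53.2 FPKM in the control libraries and 13.8, 12 and 12.9 after IGF1 (log2 fold change -1.51, SE 0.40, adjusted p = 0.0483). Ndc1, which anchors the pore in the membrane, had 29.6, 16.5 and 30.9 FPKM in the control libraries and 8.47, 9.02 and 8.21 after IGF1 (log2 fold change -1.43, SE 0.25, adjusted p = 0.0330). Without control replicate 2, 11 pore genes were called lower, where 20.6% of all genes were. With the trends of length and GC content removed Nup107 (-1.06, adjusted p = 0.0509) and Ndc1 (-0.97) no longer passed both thresholds. The mRNA export list had 0 calls among 17 genes and a median of -0.23, near that of all genes. Without control replicate 2 the list had 4 lower calls, where 20.6% of all genes were called lower. Its highest means over the 6 libraries, which the rule for naming used, were those of Ddx39b, an RNA helicase, at 192 to 245 FPKM in the 6 libraries, and Nxt1, the partner of the export receptor Nxf1, at 89.1, 154 and 92.0 FPKM in the control libraries and 150 to 161 after IGF1.

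**Figure D4:**
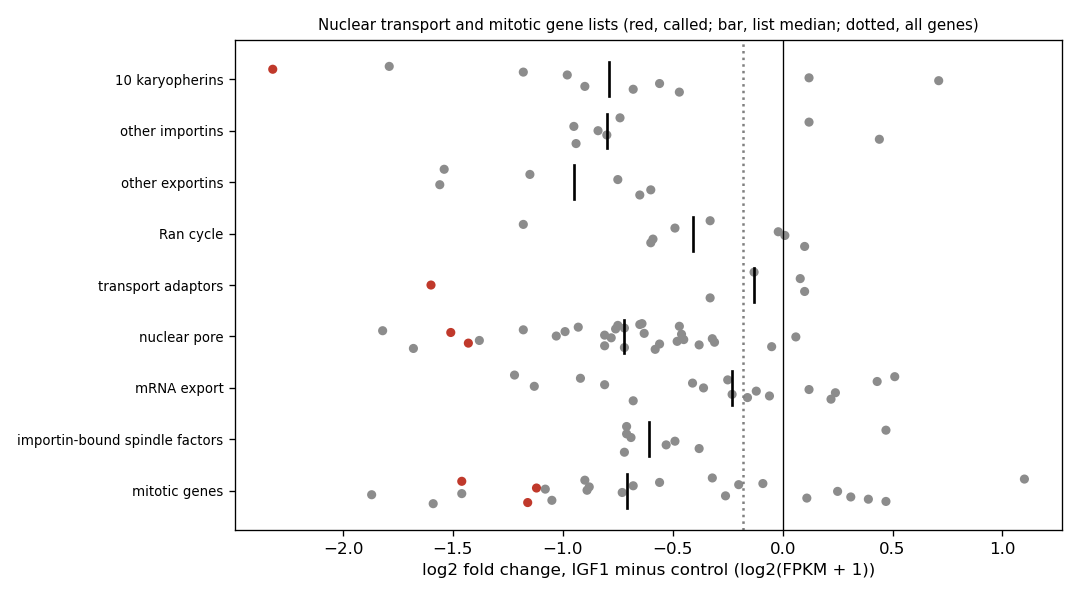
Log2 fold change, IGF1 minus control, on log2(FPKM + 1), of each tested gene of the karyopherins and of the other lists, with called genes in red, a black bar at the median of each list and a dotted line at the median of all genes (-0.18). The medians are -0.79 for the 10 karyopherins, -0.80 for the other importins, -0.95 for the other exportins, -0.72 for the nuclear pore and -0.23 for mRNA export.

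Importins hold several spindle factors until Ran-GTP frees them near chromosomes. Of 8 such genes tested, 0 were called and 7 had IGF1 libraries below every control library, as 37.4% of all genes tested had, with a median of -0.61. Without control replicate 2, 1 was called lower, where 20.6% of all genes were. The most abundant were Rae1 (70.0 to 73.0 FPKM in the IGF1 libraries and 77.2 to 103 in the controls) and Kif22, a chromosome-arm kinesin (53.1 to 54.3 and 61.0 to 88.1). Of 24 mitotic genes 3 were called lower, where 4.63% of all genes were, with a median of -0.71 and with 6 genes above 0. Without control replicate 2, 11 were called lower and 1 higher, where 20.6% and 12.3% of all genes were. The higher call was Mki67, the Ki-67 gene, named after its values were seen, at 7.55, 21 and 7.83 FPKM in the control libraries and 23.3 to 24.9 after IGF1 (log2 fold change 1.10, adjusted p = 0.0690). The 3 lower calls were Ccnb1, cyclin B1 (log2 fold change -1.46, adjusted p = 0.0467), Aurkb, the kinase of the chromosomal passenger complex (-1.12, adjusted p = 0.0443), and Ttk, the spindle checkpoint kinase (-1.16, adjusted p = 0.0380). Ccnb1 had 145, 57.0 and 144 FPKM in the control libraries and 36.6 to 39.5 after IGF1, the same order of libraries as Kpna2. With the trends of length and GC content removed, Aurkb still passed (-1.06), whereas Ccnb1 (-0.98) and Ttk (-0.59) did not. None of the 3 passed with quantile normalization (Aurkb -1.04, Ccnb1 -1.43, Ttk -0.87), and Aurkb (-0.86) and Ttk (-0.93) did not pass with 75th percentile scaling. No test of a difference between these lists and the karyopherins was made.

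The genes most like Kpna2 were sought among 5225 genes of at least median expression, by the root mean square difference of centred log2(FPKM + 1) profiles over the 6 libraries. The closest were Pmpca, a subunit of the mitochondrial processing peptidase (0.155), Sdcbp, the adaptor syntenin (0.170), Bzw1 (0.202), Ppat, the first enzyme of purine synthesis (0.212), and Eif1a, a translation initiation factor (0.212). Pmpca had 65.6, 21.8 and 65.5 FPKM in the control libraries and 9.71 to 10.8 after IGF1. For Kpnb1 they were Sod1 (0.038), Spn (0.047) and Slc25a37 (0.056), and for Xpo1 they were Cpsf2 (0.019), Fam103a1 (0.020) and Chtop (0.026). Sod1 had 337, 881 and 347 FPKM in the control libraries and 797 to 810 after IGF1. The 6 libraries fall mostly along 1 axis, whose principal component held 93.2% of the variance, so such likeness describes shared order of libraries.

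Sums over markers of other cell types also differed between libraries. In the neutrophil and monocyte, B cell, and T and NK cell lists control replicate 2 lay near the IGF1 libraries, but not in the erythroid list. Of all genes tested, 4.63% were called lower and 1.98% higher with all libraries, and 20.6% and 12.3% without control replicate 2. Of 12 neutrophil and monocyte genes, 10 were tested, and 4 (Ngp, Camp, S100a8 and S100a9) were called lower (5 lower and 3 higher without control replicate 2). The list summed to 3210 and 3260 FPKM in control replicates 1 and 3, 5440 in control replicate 2 and 5500 to 5540 in the IGF1 libraries. Mpo was at 1610 to 1700 FPKM in the 6 libraries. The granule proteases Elane, Prtn3 and Ctsg were at 92.4 to 564 FPKM in control replicates 1 and 3 and 576 to 1730 in the other libraries. Ly6g was at 0.2, 0 and 0.133 FPKM in the controls and at 0 in the IGF1 libraries. Of 8 B cell genes, 6 were tested with 0 called (4 higher without control replicate 2), and the list summed to 100 to 102 FPKM in control replicates 1 and 3 and 372 to 398 FPKM in the other libraries. The 8 erythroid genes, with 0 of 7 tested called, summed to 42.0 and 45.2 FPKM in control replicates 1 and 3, 114 in control replicate 2 and 56.9 to 63.0 in the IGF1 libraries. The 6 megakaryocyte genes, with 1 of 5 tested called higher (Gp1bb; 3 without control replicate 2), summed to 53.4 to 76.2 FPKM in the control libraries and 94.6 to 105 after IGF1. In the T and NK cell list, 0 of 2 tested genes were called (1 higher without control replicate 2), and its sum of 359 to 789 FPKM was almost all Nkg7. Cd8a (0.198 to 0.36 FPKM in the controls) and Ncr1 (0.29, 0 and 0.247 FPKM) were at 0 in the IGF1 libraries. In the stromal and endothelial list, 0 of 1 tested gene was called, with sums of 18.1 to 36.0 FPKM. Cdh5 was at 0.0772, 0 and 0.123 FPKM in the controls and at 0 in the IGF1 libraries. Their part in the karyopherin differences was not tested.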

How the data were processed

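Poly(A) RNA-seq libraries (TruSeq Stranded mRNA) of sorted HSCs were analysed, 3 control and 3 IGF1, with groups taken from the sample titles. The authors trimmed reads with fastp and quantified genes with RSEM according to the study's methods, whereas the submitters' processing notes name fastp, HISAT2 and StringTie with GRCm38 and mm10. The setting for strand in counting is not given in the sources used here. The authors deposited, for each library, a value per gene symbol that was taken as FPKM, scaled by them to gene length and depth. Values of a gene were whole multiples of 1 step (13629 of 13638 genes above 0 in at least 4 libraries, within 0.02 of a read, against 3.05% of 2000 jittered rows), and gene length as read from that step correlated by rank (0.80) with the longest transcript over 13101 genes. The absolute scale of the recovered reads is approximate.

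A gene was tested if 3 libraries or more reached 1 FPKM (10449 genes). The test was limma 3.58.1 (R 4.3.3), lmFit followed by eBayes with a trend, for values on the log2(FPKM + 1) scale, since count models need counts. Length and GC content, from GENCODE M21, were found for 96.7% of genes tested, and their trends were removed with loess (span 0.3). Near-identical copies came from blastn 2.17.0. The members and lists were chosen with earlier results of these data known. Named were all members, any gene of the smaller transport lists, and from the larger lists up to 3 called genes in each direction by size or, with none called, the 2 most abundant. Mki67 and granule, B cell and other marker genes were named after their values were seen. Same-number correlations of deviations from group means were -0.057, -0.05 and 0.006. Control replicates 1 and 3 gave nearly the same correlation with IGF1 replicate 1 (-0.057 and -0.054), so this check could not exclude pairing across groups. Alternatives were other pseudocounts, filters, scalings, no variance trend, a replicate block, no fold threshold, and leaving out each library.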

Additional observations from a re-analysis of the deposited data

How the results depend on the processing

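Over all genes, 207 higher and 484 lower calls became 66 and 157 with log2(FPKM + 5), 109 and 265 with no filter, and 654 and 1476 with no fold threshold. Lower calls were 319 with quantile normalization, 259 with 75th percentile scaling and 295 with TMM scaling. Higher genes made up 30.0% of calls, against 48.8%, 53.7% and 47.7% under these scalings. Removing the length and GC trends left 164 lower calls, and without control replicate 2 as well 1050 higher and 1023 lower. Leaving out 1 library gave 0 to 1281 higher and 0 to 2157 lower calls by limma, the highest counts without control replicate 2. Without any other library 0 genes were called, while 233 to 386 higher and 450 to 795 lower genes passed the fold at an unadjusted p under 0.05.

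With the replicate block, 0 genes and 0 karyopherins were called (680 higher and 1100 lower genes at an unadjusted p under 0.05, and 3 karyopherins lower and 0 higher). Whether the replicate numbers pair samples could not be told.

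Karyopherin calls lower in IGF1, 1 with all libraries, were 2 with log2(FPKM + 0.1) and with quantile normalization, Kpna1 being added, 5 with no fold threshold, 3 with the length and GC trends removed and without control replicate 2, and 0 to 5 when 1 library was left out. Calls higher in IGF1 were 0 to 1 when 1 library was left out, and 1 (Kpnb1) with the length and GC trends removed and without control replicate 2. Directions reversed for Kpna6 (-0.03 to 0.26 when 1 library was left out, lowest without control replicate 1), Ran (0.01 with the length and GC trends removed and 0.17 without control replicate 2 as well), Ranbp1 (0.23 with 75th percentile scaling, 0.15 with TMM, and -0.05 to 0.01 when 1 library was left out), Ddx39b (0.00 with 75th percentile scaling) and Nxt1 (-0.03 and -0.01 with the trends removed, with all libraries and without control replicate 2). The cause was not tested. The karyopherins other than Kpna6 kept their direction under every alternative run, with Kpna2 between -2.80 and -1.99, Kpna1 between -2.38 and -1.22 and Kpnb1 between 0.47 and 1.51. The calls of Nup107, Ndc1, Nmd3, Ccnb1, Aurkb and Ttk were lost when any library but control replicate 2 was left out. Calls were also lost for Aurkb with TMM (-0.94) and no filter, Ccnb1 with no filter, Ttk with log2(FPKM + 5) (-0.81), and Nup107 with log2(FPKM + 5) (-1.30) and no filter. Calls were gained for Nutf2 with the trends removed (-1.22, and -1.51 without control replicate 2), Ipo9 with log2(FPKM + 0.1) (-1.02) and Ran with quantile normalization (-1.03), where Ranbp1 was at -0.82.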
